A study of Mus musculus with 2 samples.

Results

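Zone 1 hepatocytes are the hepatocytes around the portal vein, and they were examined here as nuclei in single-nucleus RNA-seq (snRNA-seq) of mouse liver with diet-induced MASH (metabolic dysfunction-associated steatohepatitis). Nuclei were chosen by their own counts. A nucleus needed at least 300 detected genes and 3000 UMIs (unique molecular identifiers, each standing for 1 captured RNA molecule), and at most 1 UMI in all of the 8 markers of other cell types, *Reln*, *Dcn*, *Ptprb*, *Clec4g*, *Ms4a7*, *Clec4f*, *Pkhd1* and *Bcl11b*. Those that passed are called hepatocyte nuclei. A zone 1 nucleus then had at least 0.1% of its UMIs in the 5 genes *Sds*, *Hal*, *Etnppl*, *Gldc* and *Uroc1* together, and less than 0.1% in the pericentral genes *Glul* and *Slc1a2*. The rule selected 3327 of the 20111 nuclei of the series, 2105 in the Flox-labelled library and 1222 in the HKO-labelled library. Since these 5 genes chose the nuclei, their levels are given below as a description only.

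Both groups were male C57BL6/J mice that began a MASH diet at 10 to 12 weeks of age and stayed on it for 5 months. Of the energy in the diet, 40% came from fat and 20% from fructose, and the diet held 2% cholesterol. The Flox group carried *Themis* alleles flanked by loxP sites (*Themis* fl/fl), and the HKO group carried these alleles with Alb-Cre, in which the albumin promoter drives Cre recombinase in hepatocytes. The title of the Flox library also carries the word WT. Each group was 1 library of liver tissue pooled from several mice, so that mice cannot be told apart, no test between the groups was possible, and genotype cannot be told apart from any other difference between the libraries. The 95% intervals below reflect nothing but counting error. In each pair of values the first belongs to Flox and the second to HKO. A level is the share of all summed UMIs that a gene held, in CPM, where 1000 CPM is 0.1%, and log2 ratios are of CPM + 1.

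Hepatocytes divide their work along the path of the blood from the portal vein to the central vein. Those of zone 1, which receive blood rich in oxygen and nutrients, are known for the urea cycle, the breakdown of amino acids and the making of glucose and of many plasma proteins. Those of zone 3, around the central vein, make glutamine from leftover ammonia and carry most of the cytochrome P450 enzymes, and Wnt/β-catenin signalling sets much of their program. In MASH, fat, inflammation and scarring are laid over this layout, and *Themis*, best known as a signalling adaptor of developing T cells, is the gene targeted in this study.

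The library labelled Flox held 9363 barcodes and the HKO-labelled one 10748, with median depths of 6216 and 2228 UMIs. The minimum of 300 genes and 3000 UMIs was met by 6494 and 4739 barcodes, of which 5797 and 4070 were hepatocyte nuclei. How the nuclei lost to low depth would fall among the zones was not tested. Among the hepatocyte nuclei, zone 1 nuclei made up 36.31% (95% exact Clopper-Pearson interval 35.1 to 37.6) and 30.02% (28.6 to 31.5). For comparison, 1019 and 634 nuclei carried the mirrored zone 3 mark (*Glul* and *Slc1a2* at 0.1% or more, the 5 genes below it), and 2662 and 2212 were low for both marks. Zone 1 nuclei had median depths of 7195 and 6316 UMIs and 2853 and 2578 genes, and their sums held 16114997 and 8448406 UMIs. Mitochondrial genes took 0.261% and 0.216% of these sums and *Malat1* 20.6% and 22.3%. The libraries shared 27 barcodes, of which 1 belonged to a zone 1 nucleus in both.

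The rule genes are shown first by where they lie and by their promoters. In GRCm38, with GENCODE vM21 gene bounds, *Hal* lies at chr10:93488768-93519304, *Sds* at chr5:120476526-120483932, *Etnppl* at chr3:130617448-130637521, *Uroc1* at chr6:90333284-90364551 and, on the minus strand, *Gldc* at chr19:30098447-30175429. *Cyp2f2*, a cytochrome P450 of zone 1 that the rule did not use, lies at chr7:27119909-27133660, and *Themis* at chr10:28668360-28883818. The promoters below, from RefSeq (GRCm38.p6), run from 250 bases before to 50 bases after the RefSeq start, which for *Cyp2f2* and *Glul* differs by under 50 bases from the GENCODE start, and are written 5′ to 3′ on the strand of the gene. They show 1 rule gene of either zone, the independent zone 1 gene *Cyp2f2* and the targeted gene. Capitals mark matches on either strand to the TCF/LEF motif CTTTGAT, the glucocorticoid receptor motif TGTTCT and the TATA box TATAAA. The motifs do not overlap in these windows.
*Hal*, chr10:93488518-93488817, plus strand: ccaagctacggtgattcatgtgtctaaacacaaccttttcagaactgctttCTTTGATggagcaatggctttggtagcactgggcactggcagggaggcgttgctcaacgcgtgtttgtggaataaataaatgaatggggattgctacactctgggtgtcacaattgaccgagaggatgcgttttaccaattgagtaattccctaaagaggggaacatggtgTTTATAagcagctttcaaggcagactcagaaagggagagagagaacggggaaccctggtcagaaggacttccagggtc
*Cyp2f2*, chr7:27119705-27120004, plus strand: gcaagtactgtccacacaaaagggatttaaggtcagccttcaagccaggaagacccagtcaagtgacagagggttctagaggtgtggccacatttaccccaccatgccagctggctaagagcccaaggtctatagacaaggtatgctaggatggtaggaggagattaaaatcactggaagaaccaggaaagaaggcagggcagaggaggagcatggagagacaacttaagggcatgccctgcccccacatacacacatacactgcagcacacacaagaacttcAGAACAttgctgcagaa
*Glul*, chr1:153899679-153899978, plus strand: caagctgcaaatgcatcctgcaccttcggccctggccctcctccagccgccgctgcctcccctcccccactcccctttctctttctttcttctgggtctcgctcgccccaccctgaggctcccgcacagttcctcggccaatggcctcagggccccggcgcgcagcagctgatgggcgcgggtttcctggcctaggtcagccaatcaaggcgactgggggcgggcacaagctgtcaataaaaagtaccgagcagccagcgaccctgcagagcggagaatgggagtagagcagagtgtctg
*Themis*, chr10:28668110-28668409, plus strand: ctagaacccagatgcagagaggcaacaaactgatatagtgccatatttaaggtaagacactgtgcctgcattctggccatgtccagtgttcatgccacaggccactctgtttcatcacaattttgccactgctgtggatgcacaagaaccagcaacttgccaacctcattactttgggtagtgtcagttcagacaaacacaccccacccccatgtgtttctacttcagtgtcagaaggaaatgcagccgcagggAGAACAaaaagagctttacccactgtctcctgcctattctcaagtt

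A TCF/LEF match stood in the window of *Hal*, and no match to these motifs in that of *Glul*. Other promoters and motifs were searched too and are not all shown. Among the promoters not printed, that of *Slc1a2*, the other pericentral rule gene, held a TCF/LEF match as well. The TCF/LEF motif therefore did not separate the periportal from the pericentral rule genes. Of the 27025 genes with a promoter in this table, 3.72% held the TCF/LEF motif, 19.0% the glucocorticoid receptor motif and 14.2% the TATA box.

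Expression of *Themis* was examined before all other genes, since it is the targeted gene. In zone 1 nuclei its level was 11.7 CPM (95% exact Poisson interval 10.1 to 13.5) in the Flox-labelled library and 94.1 CPM (87.7 to 100.9) in the HKO-labelled one. *Themis* was therefore 8.02-fold higher (6.84 to 9.45) in the library in which it was to be deleted, a log2 ratio of 2.90 that was 2.00 when nuclei were thinned to 3000 UMIs before the rule and 1.84 with a cut of 0.05%. After thinning each nucleus to 1000 UMIs, 1.24% and 6.55% of zone 1 nuclei held a *Themis* UMI. Of the endothelial nuclei, 0 of 585 (95% Clopper-Pearson upper limit 0.629%) and 0.909% of 440 held one. Without thinning the zone 1 shares were 5.08% and 28.2%. The endothelial nuclei, chosen by *Ptprb* and *Clec4g*, show the level that free RNA can give, at median depths of 1399 and 1248 UMIs before thinning against 7195 and 6316 in zone 1. Which exon was removed was not given in the sources used here, and 3′ reads from outside the deleted part would still be counted as *Themis*. The groups are therefore named by their labels throughout, and every direction below is that of the HKO-labelled library against the Flox-labelled library.

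*Themis* belonged to the genes that were low in zone 1. Its level in zone 3 nuclei was 311 and 434 CPM, and in nuclei low for both marks 214 and 301 CPM. The log2 ratio of zone 1 over zone 3 was −4.62 in the Flox-labelled library and −2.19 in the HKO-labelled one. The difference between the libraries was thus larger in zone 1 than in zone 3, where the log2 ratio was 0.48, and the ratio of these ratios was 5.75 (4.85 to 6.83).

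**Figure D1:**
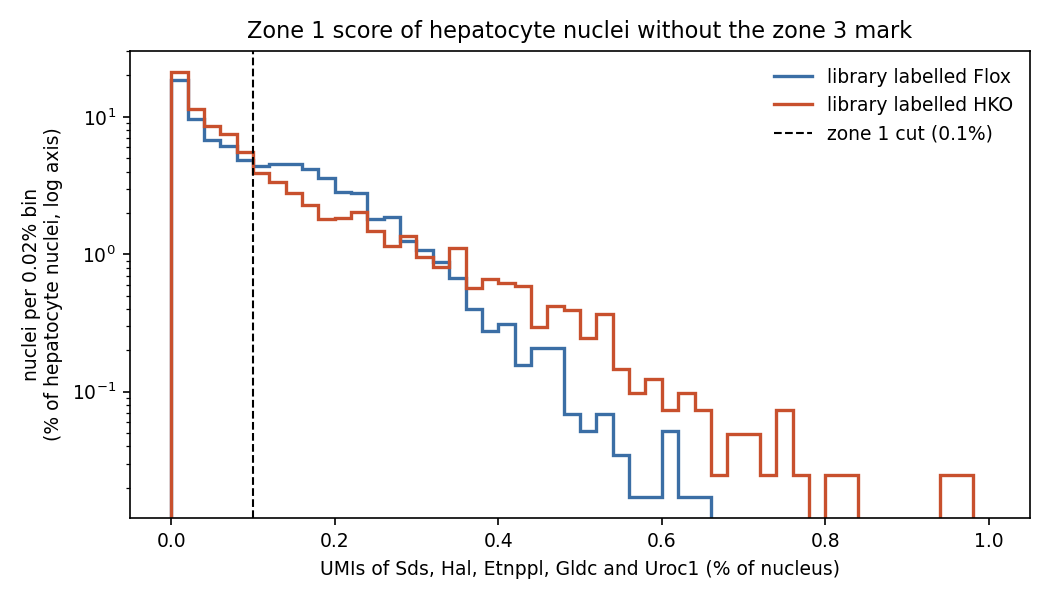
Distribution of the zone 1 score, the share of a nucleus's UMIs in *Sds*, *Hal*, *Etnppl*, *Gldc* and *Uroc1*, over hepatocyte nuclei without the zone 3 mark, as percent of all hepatocyte nuclei per 0.02% bin on a log axis. The dashed line is the cut of 0.1%, which lies in a continuous distribution, and the HKO-labelled library reaches higher scores (up to 0.971% against 0.645%).

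The zone 1 score, the share of UMIs in the 5 rule genes, was a range without a gap at the cut, as its distribution shows. In zone 1 nuclei its median was 0.183% in the Flox-labelled library and 0.210% in the HKO-labelled one. Between 0.1% and 0.11% lay 122 and 77 nuclei, and between 0.09% and 0.1% just below the cut lay 142 and 103. *Cyp2f2* was at 255 and 157 CPM just inside the cut and at 221 and 111 CPM just outside it, so that it was lower outside the cut in both libraries. Scores of 0.4% or more were found in 71 Flox-labelled and 158 HKO-labelled nuclei. The lower share of zone 1 nuclei in the HKO-labelled library depended on the cut: with a cut of 0.2% the shares were 15.1% and 15.9%.

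The 5 rule genes did not move together between the libraries. *Etnppl*, which breaks down phosphoethanolamine, was at 184.5 and 443 CPM. *Sds*, serine dehydratase, was at 535 and 797 CPM, and *Gldc*, the decarboxylase of the glycine cleavage system, at 89.4 and 124.5 CPM. *Uroc1* and *Hal* catalyse successive steps of histidine breakdown: *Uroc1* was at 840 and 876 CPM and *Hal* at 295 and 188 CPM. *Hal* was thus lower and *Etnppl*, *Sds* and *Gldc* higher in the HKO-labelled library, while *Uroc1* turned from a log2 ratio of 0.06 to −0.04 with a cut of 0.2%. After thinning to 3000 UMIs, 10.4% and 12.3% of zone 1 nuclei held a UMI of exactly 1 of the 5 genes, while 3 of them were found in 34.4% and 36.2% and all 5 in 3.75% and 4.34%. In zone 3 nuclei, 84.3% and 80.9% held a UMI of none.

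Genes that the rule did not use followed the same layout. *Cyp2f2* was at 327 CPM (319 to 336) and 222 CPM (212 to 232) in zone 1, at 58.3 and 34.4 CPM in nuclei low for both marks and at 10.8 and 3.46 CPM in zone 3. *Oat*, ornithine aminotransferase, which is bound to the cells next to the central vein, was at 8.94 and 5.33 CPM in zone 1 and at 457 and 387 CPM in zone 3. Both genes, periportal and pericentral, thus lay on the side of the zones that their textbook role gives them. Of the 9134 genes with at least 100 UMIs over both zones in each library, 185 (2.03%) were at least 2-fold higher and 191 (2.09%) at least 2-fold lower in zone 1 than in zone 3 in both libraries. Of the 20 measured members of the list of zone 1 genes outside the rule, 14 were at least 2-fold higher in zone 1 and 0 were lower. Of the 23 measured zone 3 genes, 20 were at least 2-fold lower in zone 1 and 0 were higher.

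Beside the rule genes *Etnppl*, *Hal*, *Sds* and *Gldc*, the 12 with the highest log2 ratios over zone 3 in both libraries held *Gls2* (5.25 and 5.39), the liver glutaminase that frees ammonia for the urea cycle, and *Aspg* (4.87 and 4.84), an asparaginase. They also held *Arg1*, the arginase that releases urea, at 956 and 1363 CPM in zone 1 and 32.7 and 32.7 CPM in zone 3. *Sfxn1*, a mitochondrial serine carrier, was at 478 and 554 CPM in zone 1 and 10.8 and 10.9 CPM in zone 3. *Cryl1*, *Cyp2f2*, *1810064F22Rik* and *AC135859.1* completed the 12. The urea cycle as a list had 7 of 10 members at least 2-fold higher in zone 1, with median log2 ratios of 2.23 and 2.42 over zone 3. *Cps1*, which fixes ammonia as carbamoyl phosphate, stood at 4.02 and 4.30, and the argininosuccinate enzymes *Ass1* and *Asl* at 3.40 and 3.96 and at 2.49 and 2.44.

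Breakdown of histidine, serine and glycine followed, with 9 of 14 members at least 2-fold higher in zone 1, 5 of which were the rule genes themselves. *Amdhd1*, the next enzyme of histidine breakdown after *Uroc1*, was at 174 and 125 CPM in zone 1 and 7.77 and 14.6 CPM in zone 3. The 30 measured genes for the breakdown of other amino acids were mostly even between the zones, with 3 higher and 2 lower by 2-fold and medians of 0.13 and 0.12. Of the 10 genes of gluconeogenesis 3 were higher in zone 1. *Pck1*, which makes phosphoenolpyruvate, was at 3969 and 4797 CPM against 1225 and 1263 CPM in zone 3, while *G6pc*, which releases free glucose, was even at log2 ratios of 0.01 and 0.20.

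*Hamp*, which encodes the iron hormone hepcidin, was at 997 CPM (982 to 1013) and 620 CPM (603 to 637) in zone 1 and at 67.0 and 54.0 CPM in zone 3. It is in the list of midlobular genes used here and was not confined to zone 1. Below the cut, at zone 1 scores from 0.05% to 0.1%, *Hamp* was at 792 and 353 CPM. At scores of 0.4% and above it was at 739 and 824 CPM. *Igf1*, insulin-like growth factor 1, was at 556 and 969 CPM in zone 1 and 128.5 and 383 CPM in zone 3. *Hsd17b13*, a lipid droplet protein, was at 364 and 435 CPM in zone 1 and 16.7 and 27.7 CPM in zone 3. *Cdh1*, the adhesion protein E-cadherin, was at 10.6 and 6.98 CPM in zone 1 and 0.43 and 0.53 CPM in zone 3. *Sox9*, which portal hepatocytes share with bile duct cells, was at 27.3 and 21.4 CPM in zone 1 and 3.02 and 1.595 CPM in zone 3.

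The genes that were lowest in zone 1 were the rule genes *Slc1a2* (log2 −8.59 and −9.29 against zone 3) and *Glul* (−6.72 and −6.95), a glutamate carrier and glutamine synthetase. After them came genes of the Wnt-dependent pericentral program: *Lgr5* (−6.77 and −5.91), a receptor for R-spondins, the transcription factor *Tbx3* (−5.69 and −5.29) with its antisense neighbour *Tbx3os1* (−6.95 and −6.63), and *Oat* (−5.53 and −5.94). *Adgrg2*, *Slc13a3*, *Lhpp*, *Prrx1*, *Cyp2c38* and *Vldlr*, the VLDL receptor, completed the 12. In zone 1 these genes rested on few UMIs: *Adgrg2* had 1 and 4 UMIs, *Prrx1* 5 and 5, *Slc13a3* 6 and 5, and *Lgr5* 9 and 13.

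**Figure D2:**
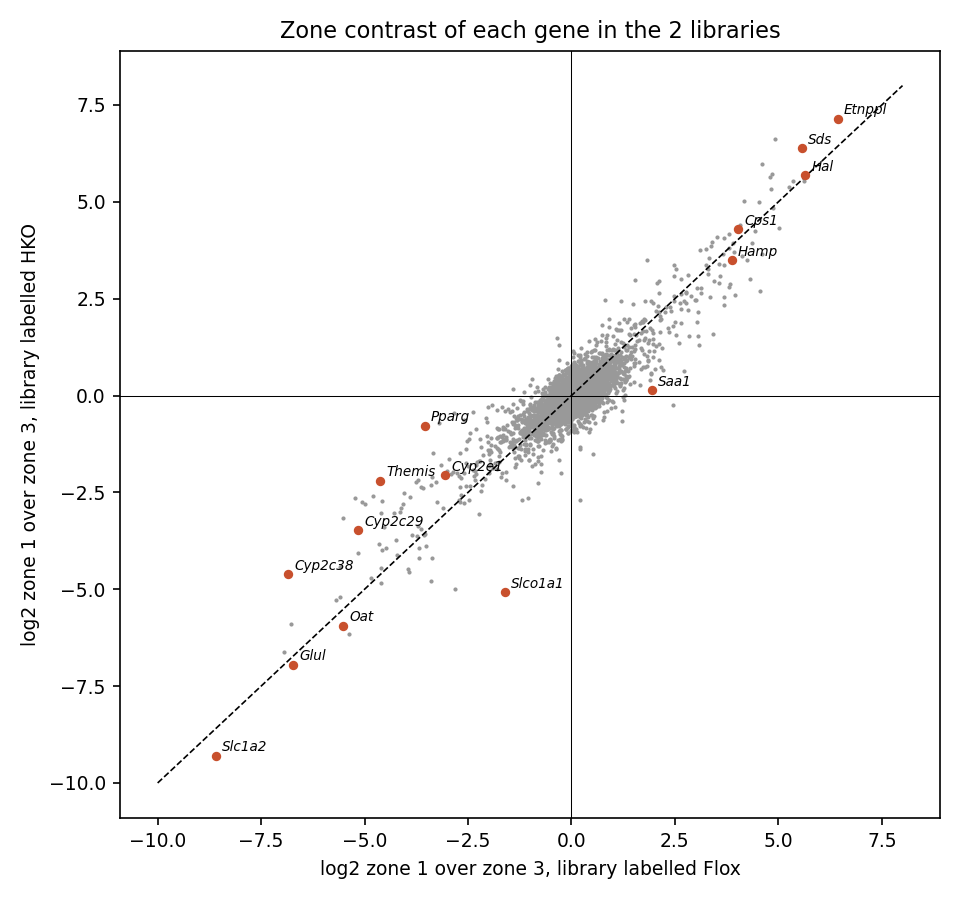
Log2 ratio of zone 1 over zone 3 nuclei for each of 9134 genes in the Flox-labelled library (horizontal) and in the HKO-labelled one (vertical), from summed CPM + 1, with the dashed line at equal ratios. Genes high in zone 1 such as *Cps1* (4.02 and 4.30) lie near the line, while *Themis* (−4.62 and −2.19) and *Cyp2c29* (−5.15 and −3.47) lie above it.

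The contrast between the zones was smaller in the HKO-labelled library for most pericentral genes. Over the 189 genes outside the rule that were at least 2-fold lower in zone 1 in both libraries, the median log2 ratio was −2.19 in the Flox-labelled library and −1.82 in the HKO-labelled one, and 135 of them had the smaller contrast in the latter. For the 180 genes that were higher in zone 1, the medians were 2.13 and 1.98, and 107 had the smaller contrast. In the fixed list of zone 3 genes, 20 of 23 had a smaller contrast in the HKO-labelled library, with medians of −3.63 and −2.60. The share of all 9134 genes with a smaller contrast was not computed. Counts of smaller contrasts, here and below, therefore cannot be called particular to their sets. The zone 3 values moved as well as the zone 1 values: *Cyp2e1*, the ethanol-oxidizing cytochrome, was at 253 and 315 CPM in zone 1 but at 2092 and 1308 CPM in zone 3.

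Along the zone 1 score, levels changed by steps rather than at the cut. From scores under 0.02% to scores of 0.4% or more, *Cyp2f2* went from 10.3 to 388 CPM in the Flox-labelled library and from 8.64 to 234 CPM in the HKO-labelled one. *Cps1* went from 352 to 765 CPM and from 351.5 to 1268 CPM. *Cyp2e1* went the other way, from 1840 to 84.5 CPM and from 1047 to 145 CPM. The libraries crossed in *Cyp2e1*: the HKO-labelled library was lower in each step below 0.1% and higher in each step above it, although just below the cut, from 0.09% to 0.1%, it was already higher, at 694 against 622 CPM.

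*Themis* was graded along the score in both libraries. In the Flox-labelled library it was at 296 CPM under a score of 0.02%, at 16.4 CPM from 0.1% to 0.2%, at 4.24 CPM from 0.2% to 0.4%, and at 0 UMIs in the 71 nuclei above. In the HKO-labelled library the same steps were 347, 144, 57.6 and 24.1 CPM. Within the step from 0.2% to 0.4% the log2 ratio of HKO over Flox was 3.48. The rule genes that make up the score differed between the libraries themselves, so that an equal score need not be an equal position. Whether positions were alike within a step was not tested. *Saa1*, an acute phase protein, was highest in the lowest zone 1 step in the Flox-labelled library, at 955 CPM from 0.1% to 0.2% against 639 CPM from 0.05% to 0.1% and 132 CPM at 0.4% and above, and stayed between 51.6 and 105 CPM at all steps in the HKO-labelled one.

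**Figure D3:**
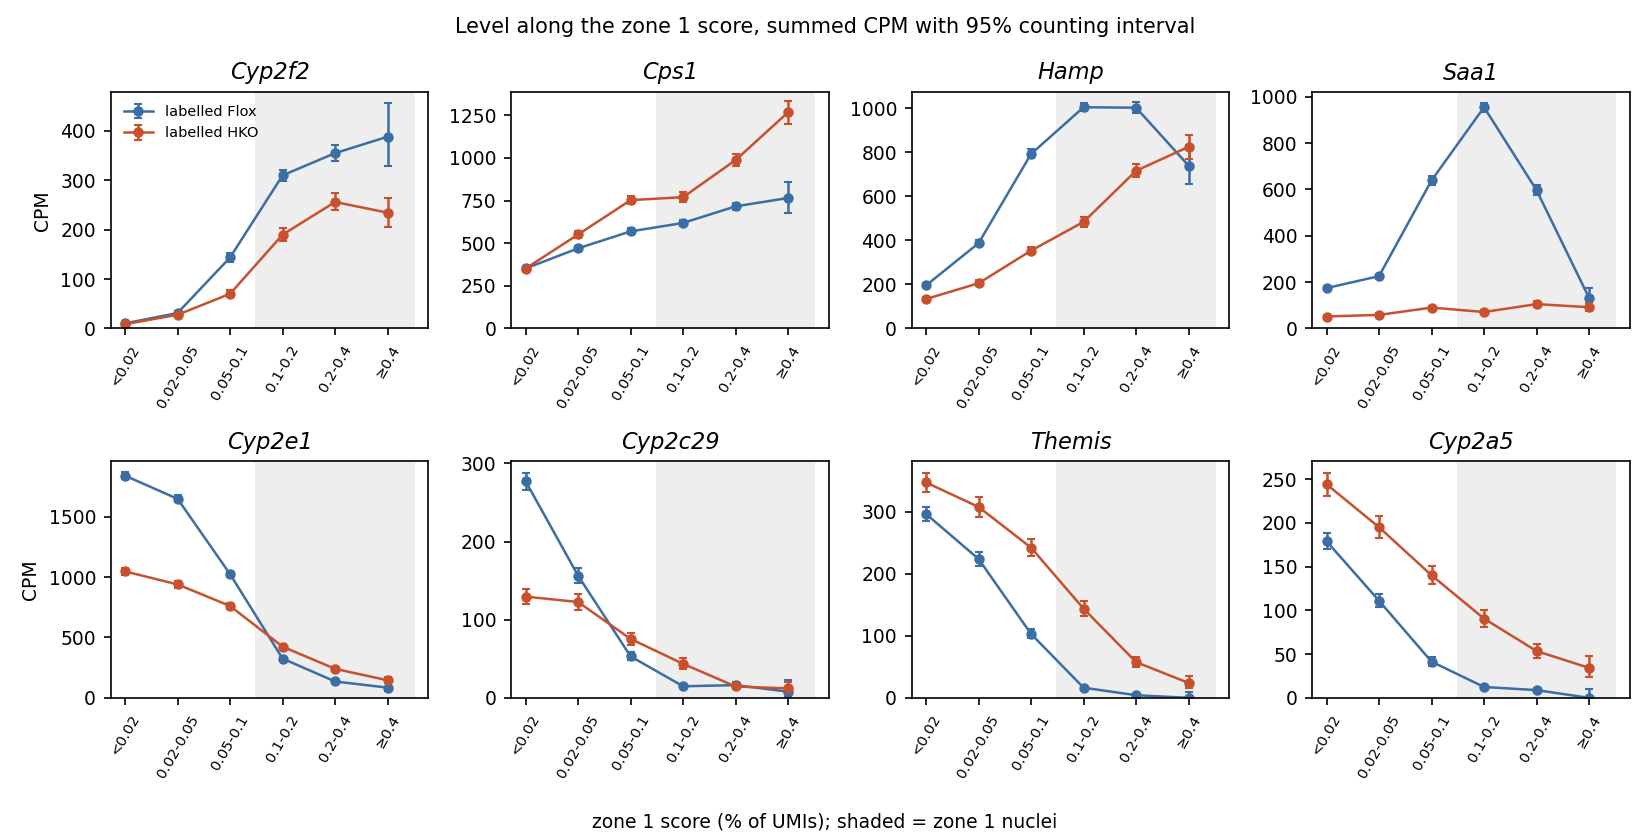
Summed CPM of 8 genes in hepatocyte nuclei without the zone 3 mark, by steps of the zone 1 score (percent of UMIs, horizontal), with 95% Poisson intervals, blue for the Flox-labelled library and red for the HKO-labelled one; the shaded steps are zone 1 nuclei. *Themis* and *Cyp2a5* stay higher in the HKO-labelled library at every step, *Cyp2e1* crosses near 0.1%, and *Saa1* peaks at 955 CPM in the Flox-labelled library alone.

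Within zone 1, 10543 genes had at least 100 UMIs over both libraries. Of these, 182 (1.73%) were at least 2-fold higher and 238 (2.26%) at least 2-fold lower in the HKO-labelled library, and the median log2 ratio of all was −0.04, with 45.4% of them higher in the HKO-labelled library by any amount. With 1 library per group, these counts say how many genes were past the fold and not how many differed between genotypes.

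Of 19 listed genes known as male-biased in mouse liver, 17 had 100 UMIs. Of these, 16 were at least 2-fold lower, against 2.26% of all genes. The median log2 ratio of the 17 was −3.07, and it was −2.35 with a minimum of 20 UMIs. A gene that is high in 1 library alone reaches 100 UMIs through it, so the count and median are a description and not support. Among the 16 were major urinary proteins, carriers of pheromones that the male liver secretes. *Mup7* was at 124 CPM (118 to 129) and 0.947 CPM (0.409 to 1.87), which is 130.5-fold lower. *Mup1* was at 94.6 and 1.42 CPM, *Mup11* at 134 and 2.72 CPM, *Mup9* at 164 and 3.67 CPM and *Mup12* at 51.6 and 2.49 CPM. *Mup14*, which is in no list here, was at 43.9 and 2.49 CPM. The *Mup* genes are near-identical copies, and how reads were split between them is uncertain.

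Male-biased genes of other families stood on the same side. *Slco1a1*, an organic anion carrier of the sinusoidal membrane, was at 171 CPM (165 to 178) and 2.72 CPM (1.73 to 4.08). Its log2 ratio of −5.53 was −4.46 with a cut of 0.05%. *Serpina1e*, a member of the α1-antitrypsin family that itself has close copies, was at 700 and 18.0 CPM, and *Selenbp2* at 674 and 36.5 CPM. *Cyp7b1*, which hydroxylates oxysterols, was at 34.6 and 10.7 CPM. *Elovl3*, a fatty acid elongase, was the exception at 8.19 and 11.6 CPM, a log2 ratio of 0.46 that was −0.26 with a cut of 0.05%. *Capn8*, the remaining gene of the 10 with the lowest ratios, was at 50.5 and 3.79 CPM.

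Of 16 listed female-biased liver genes, only 4 had 100 UMIs, and their values are given without a count or median as support, since a gene that is high in 1 library alone reaches this limit through it. *Cyp2a4*, a steroid hydroxylase, had 0 UMIs in the Flox-labelled library and 217 (25.7 CPM) in the HKO-labelled one, at least 138-fold higher when 3 counts are taken as the limit of the former. *Cyp2a4* and its near-identical neighbour *Cyp2a5* may exchange reads. *Cyp2b9* was at 0.993 CPM (0.567 to 1.61) and 33.6 CPM (29.8 to 37.8), *Cyp17a1* at 13.9 and 64.9 CPM and *Abcd2*, a carrier of very long fatty acids, at 12.1 and 27.9 CPM. The log2 ratio of *Abcd2* was 1.14 and fell below 2-fold, to 0.58, with a cut of 0.2%. Of the 12 other members 8 had 0 UMIs in zone 1.

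The other genes with the highest ratios were *Chrna4*, a subunit of the nicotinic acetylcholine receptor, at 1.49 and 38.2 CPM, *Fmo2*, a flavin monooxygenase, at 4.34 and 78.4 CPM, *Limch1* at 0.745 and 17.2 CPM, *Cyp2c68* at 4.78 and 54.6 CPM and *Cyp2c38* at 1.18 and 27.3 CPM. *Tox*, a nuclear protein best known from T cells, was at 1.43 and 17.4 CPM, and *Tenm3*, a teneurin, at 1.30 and 14.7 CPM. *Fmo2* and *Limch1* were also carried by the endothelial nuclei, at 124 and 165 CPM and at 67.3 and 76.1 CPM, and the part of other cells' RNA in their zone 1 values was not tested. With a cut of 0.05% the log2 ratio of *Tox* was 2.27 in place of 2.92, that of *Tenm3* 1.97 in place of 2.77 and that of *Cyp2c38* 4.54 in place of 3.70. In the endothelial nuclei *Tox* was at 0 and 8.58 CPM and *Tenm3* at 0 and 3.22 CPM, and the part of such RNA in their zone 1 values was likewise not tested.

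Hormone receptors and regulators of liver genes were measured too. *Prlr*, the prolactin receptor, was at 114 CPM (108 to 119) and 426 CPM (412 to 440), and *Socs2*, a target and brake of growth hormone signalling, at 11.2 and 46.5 CPM, a log2 ratio of 1.96 that was 1.17 with a cut of 0.2%. *Ghr*, the growth hormone receptor, was at 429 and 533 CPM. *Bcl6*, a repressor that keeps male liver genes on by blocking female ones, was at 144 and 84.3 CPM. Over the list of 25 receptors and regulators, 12 were higher and 13 lower, 3 by at least 2-fold (*Socs2*, *Prlr* and *Lpin1*), and the median was −0.02. *Hnf4a*, a master factor of hepatocytes, was at 153 and 149 CPM.

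**Figure D4:**
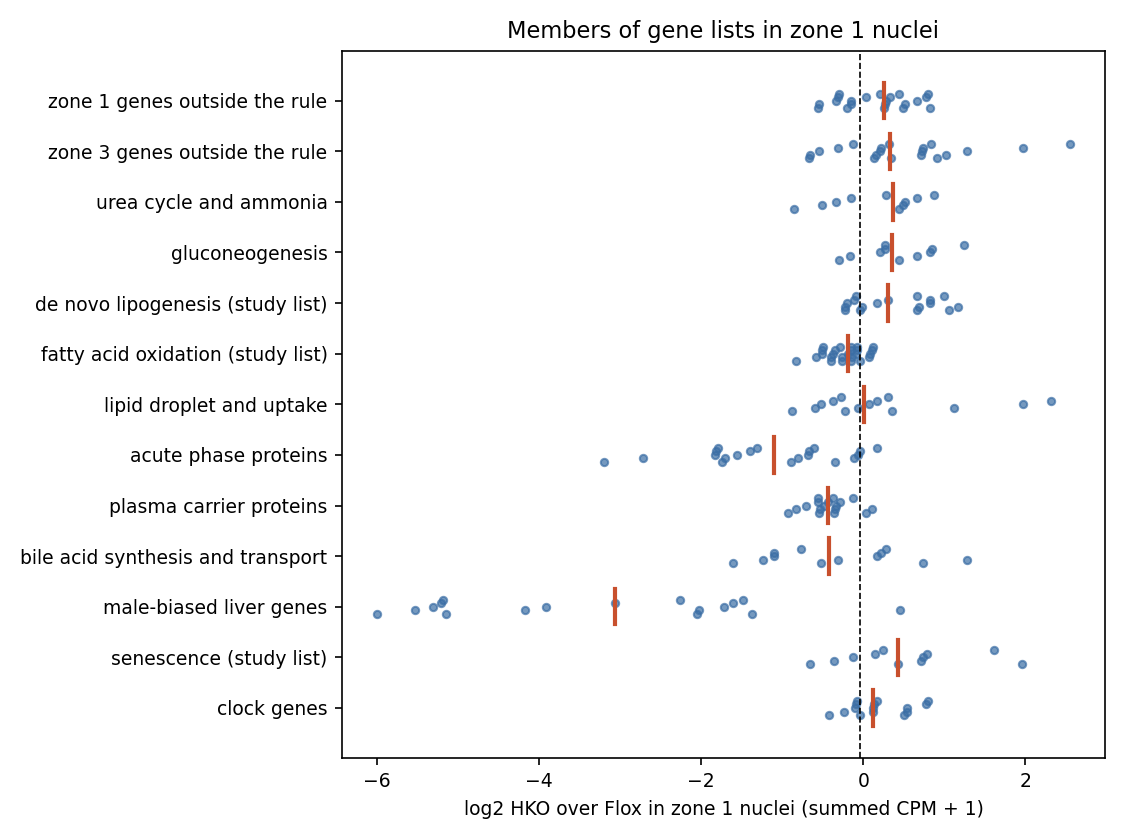
Log2 ratio of HKO over Flox in zone 1 nuclei for each member with at least 100 UMIs (blue points) of 13 gene lists, with the list's median (red bar) and the median of all 10543 genes (dashed line, −0.04). Male-biased genes (median −3.07) and acute phase proteins (−1.10) lie left of the line, and de novo lipogenesis (0.30) to its right. A gene that is high in 1 library alone reaches 100 UMIs through it.

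Acute phase proteins, which the liver secretes under inflammatory signals, were lower in 19 of 20 members, against 5755 of 10543 genes. At least 2-fold lower were 10 of them, against 2.26% of all genes. The median log2 ratio was −1.10, and it was −0.82 with a cut of 0.2%. *Saa1* was at 810 CPM (796 to 824) and 87.2 CPM (81.0 to 93.8), 9.29-fold lower or a log2 ratio of −3.20 that was −2.47 with a cut of 0.2%, and its close copy *Saa2* at 199 and 29.4 CPM. The 3 chains of fibrinogen moved alike: *Fga* was at 931 and 268 CPM, *Fgb* at 2305 and 655 CPM and *Fgg* at 1530 and 430 CPM. *Serpina3n*, a protease inhibitor, was at 134 and 39.3 CPM, and *Hp*, haptoglobin, at 962 and 517 CPM. *Cp*, ceruloplasmin, was the exception at 985 and 1108 CPM, but with a cut of 0.2% its log2 ratio turned from 0.17 to −0.12 and that of *Orm3* from −0.04 to 0.55. In zone 3 the median of the list was −0.57, and the contrast between the zones was smaller in the HKO-labelled library for 14 of 19 members.

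Plasma carriers were lower in 15 of 17 members, none by as much as 2-fold, against 5755 of 10543 genes lower by any amount. Their median was −0.44. *Alb*, albumin and the gene whose promoter drives Cre here, was at 3176 CPM (3148 to 3203) and 1955 CPM (1925 to 1985) in zone 1 and at 1342 and 1316 CPM in zone 3. *Apoa1*, the main protein of HDL, was at 1414 and 743 CPM and *Ttr*, transthyretin, at 842 and 690 CPM. The chaperone *Hspa5* (BiP) was at 385 and 190 CPM and *Dnajb9* at 46.1 and 21.5 CPM, the only 2 of the 10 measured stress genes past 2-fold. Neither was past it with a cut of 0.2%, where their log2 ratios were −0.74 and −0.78. *Xbp1*, a factor of the unfolded protein response, was at 277 and 147 CPM, whereas *Atf4* was at 164 and 206 CPM and *Ddit3* at 42.8 and 43.8 CPM.

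The metabolic core of zone 1 differed little in comparison. Of the 10 genes of the urea cycle and ammonia, 6 were higher and 4 lower, none past 2-fold, with a median of 0.36. *Arg1* was 1.42-fold higher (1.39 to 1.46) and *Cps1*, at 657 and 921 CPM, 1.40-fold higher (1.36 to 1.44). The carriers *Slc7a2*, for arginine (1088 and 1723 CPM), and *Slc25a15*, for ornithine (87.9 and 162 CPM), were higher, and *Otc*, which makes citrulline (176 and 123 CPM), and *Nags*, which makes the activator of *Cps1* (35.8 and 19.3 CPM), were lower. Gluconeogenesis was higher in 8 of 10 members, against 45.4% of all genes, with a median of 0.36: *Got1*, an aspartate aminotransferase, was at 86.6 and 206 CPM and *Ppargc1a*, a coactivator induced on fasting, at 54.4 and 98.7 CPM. The 14 genes of histidine, serine and glycine breakdown were split, 7 higher and 7 lower, and 12 of the 31 measured genes for other amino acids were higher.

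Zone 3 genes outside the rule were higher in zone 1 nuclei of the HKO-labelled library in 15 of 20 measured members, against 45.4% of all genes. At least 2-fold higher were 4, against 1.73% of all genes. The median was 0.33, against −0.34 in zone 3. The 4 were *Cyp2a5*, *Cyp3a11*, *Cyp7a1* and *Ahr*. *Cyp2a5*, a cytochrome P450, was at 10.9 CPM (9.31 to 12.6) and 68.5 CPM (63.1 to 74.3), and *Cyp3a11*, another, at 28.2 CPM (25.7 to 31.0) and 114 CPM (107 to 121). The log2 ratio of *Cyp3a11* was 1.98, and 1.38 when nuclei were thinned before the rule. *Cyp7a1*, the rate-limiting enzyme of bile acid synthesis, was at 367 and 891 CPM, and *Ahr*, a sensor of aromatic compounds, at 48.3 and 99.3 CPM. Other pericentral genes were lower: *Oat* was at 8.94 and 5.33 CPM, *Cyp1a2* at 14.6 and 9.71 CPM and *Rgn* at 33.2 and 20.5 CPM. In the endothelial nuclei, *Cyp2a5* was at 29.9 and 33.2 CPM and *Cyp3a11* at 49.1 and 108 CPM, so that free RNA of *Cyp3a11* also differed between the libraries; its part in the zone 1 values was not tested. *Cyp2e1* free RNA went the opposite way, at 269 and 159 CPM.

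De novo lipogenesis, a list that the study curated partly on expression and variation among hepatocytes, had 10 of 17 members higher, against 45.4% of all genes, with a median of 0.30. The sources do not say in which samples that curation was made, so the list may not be independent of these nuclei. *Acacb* and *Fasn* were at least 2-fold higher, but neither was with a cut of 0.2%, where their log2 ratios were 0.91 and 0.76. *Acaca*, acetyl-CoA carboxylase, was at 132 and 264 CPM, *Fasn*, fatty acid synthase, at 28.5 and 60.1 CPM, *Acacb* at 16.6 and 38.5 CPM and *Scd1*, a desaturase, at 251 and 447 CPM. In zone 3 the median was 0.64, and 13 of the 16 members compared had the larger ratio there. *Acaca* along the score went in opposite directions: it was 376 CPM under 0.02% and 154 CPM at 0.4% and above in the HKO-labelled library, and 121.5 and 185 CPM in the Flox-labelled one. Fatty acid oxidation, a list curated likewise, was lower in 21 of 25 members, none by 2-fold, against 5755 of 10543 genes lower by any amount. Its median was −0.18 in zone 1 and −0.22 in zone 3. *Fabp1*, a fatty acid binding protein, was at 574.5 and 322 CPM and *Cpt2* at 29.2 and 20.2 CPM.

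Lipid uptake and droplet genes were split, 7 higher and 7 lower. *Plin4*, a droplet coat protein, was at 30.8 CPM (28.1 to 33.6) and 157 CPM (148 to 165), or 2.31 on the log2 scale (3.11 with a cut of 0.2% and 1.40 with 0.05%), *Cd36*, a fatty acid receptor, at 15.1 and 61.8 CPM, and *Cidec*, which fuses droplets, at 13.7 and 31.0 CPM. *Pparg*, the nuclear receptor that governs these genes in fat cells, was at 3.29 CPM (2.46 to 4.30) and 18.7 CPM (15.9 to 21.9). Its log2 ratio of 2.20 was 1.54 when nuclei were thinned before the rule and 1.34 with a cut of 0.05%. *Plin2*, the main droplet coat of hepatocytes, was lower at 370 and 200.3 CPM. Endothelial nuclei carried *Cd36* at 625 and 912 CPM, and the part of their RNA in the zone 1 values was not tested; *Plin4* was at 5.34 and 12.9 CPM there.

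Glycolysis and sterol genes had few members past 2-fold. *Pklr*, the liver pyruvate kinase, was at 32.5 and 92.7 CPM and was the only one of 11 glycolysis genes past 2-fold, though not with a cut of 0.2% (log2 0.92), with *Gapdh* at 71.8 and 49.9 CPM. Of 17 measured cholesterol synthesis genes, 13 were higher, against 45.4% of all genes. *Fdps* (10.9 and 41.3 CPM), *Hmgcs1* (15.6 and 34.8 CPM) and *Idi1* (3.35 and 8.17 CPM) were past 2-fold, *Hmgcs1* not so with a cut of 0.05% (log2 0.98). Of 12 bile acid genes, 4 were at least 2-fold lower, against 2.26% of all genes. Among the 4 were *Cyp8b1*, which sets the ratio of bile acids (57.1 and 26.2 CPM), *Slc27a5* (223 and 93.9 CPM) and *Nr0b2*, the repressor SHP (63.8 and 29.1 CPM). Of these, *Cyp8b1* was not past 2-fold when nuclei were thinned before the rule (log2 −0.97). *Cyp7a1* was the 1 bile acid gene past 2-fold the other way.

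Genes of damage and cell cycle were few in zone 1. *Cdkn1a*, which encodes the cell cycle inhibitor p21, was at 8.19 CPM (6.85 to 9.71) and 34.8 CPM (30.9 to 39.0), and after thinning 0.523% and 2.45% of nuclei held a UMI, 4.80% and 16.5% without thinning. The endothelial nuclei, which may express *Cdkn1a* themselves, held one in 2.05% and 1.82%, so that the thinned share lay below theirs in the Flox-labelled library and within counting error of theirs in the other. Of the study's senescence list, a published set that it filtered in the same way, 11 of 41 members had 100 UMIs. A gene that is high in 1 library alone reaches this limit through it. Of the 11, 8 were higher, against 45.4% of all genes. *Cdkn1a* and *Cd9* were at least 2-fold higher, against 1.73% of all genes, but *Cd9* was not with a pseudocount of 10 CPM (log2 0.60). *Nrg1*, neuregulin 1 and a marker of the disease-associated hepatocytes (daHep) named by the study, was at 19.1 and 63.6 CPM in zone 1, at 14.2 and 104 CPM in nuclei low for both marks and at 91.9 and 68.6 CPM in endothelial nuclei. Of the 4 measured daHep markers 3 were higher, against 45.4% of all genes, and the median log2 ratio of the 4 was 0.73. The 3 were *Nrg1*, *Klf6* (log2 0.74) and *Jun* (0.72), while *Gdf15* was lower, at 83.0 and 52.2 CPM. *Ccnd1*, cyclin D1, was at 34.1 and 92.0 CPM and was the only one of 24 measured proliferation genes past 2-fold, with *Pcna* at 8.94 and 8.05 CPM and *Top2a* at 5.03 and 9.94 CPM.

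Immediate early genes, which respond within minutes of handling, did not move as a block. *Gadd45g* was at 36.0 and 159 CPM and *Myc* at 5.27 and 12.8 CPM, *Junb* was at 114 and 35.3 CPM, and *Jund* at 88.8 and 92.0 CPM. Of 15 measured clock genes none was past 2-fold, and the largest log2 ratio was 0.80 for *Bhlhe40*. Of 11 interferon-stimulated genes none was past 2-fold either, with *Irf7* at 21.8 and 11.6 CPM and *Ifit3* at 3.66 and 7.34 CPM.

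Compared with zone 3, 8773 genes had 100 UMIs in each zone. The log2 ratio of HKO over Flox was at least 1 higher in zone 1 than in zone 3 for 66 genes (0.752%) and at least 1 lower for 49 (0.559%). Of the genes at least 2-fold higher in zone 1, 56 of 126 (44.4%) were so in zone 3. That is 44.1% of the 127 past 2-fold there, out of all 8773 genes. Of the 126, 8 were not higher in zone 3 by any amount. Of those at least 2-fold lower, 92 of 170 (54.1%) were so in zone 3. That is 53.2% of the 173 past 2-fold there, out of all 8773. Of the 170, 0 were not lower in zone 3 by any amount.

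Largest in the first direction were *Pparg*, *Tenm3*, *Elovl3*, *Themis*, *Mup17* and *Plin4*. *Pparg* was 5.69-fold higher (4.14 to 7.92) in zone 1 and stood at 49.1 and 32.7 CPM in zone 3. *Plin4* was 5.09-fold higher in zone 1 and stood at 226 and 216 CPM in zone 3, and *Tenm3* stood at 85.5 and 96.3 CPM there. All 6 were lower in zone 1 than in zone 3 in the Flox-labelled library, by log2 ratios of −2.83 to −5.23. All 6 had a smaller contrast in the HKO-labelled library, which for genes low in zone 1 follows from how they were chosen. *Elovl3* and *Mup17* differed in another way, since their zone 3 levels were far lower in the HKO-labelled library, at 84.2 and 19.4 CPM and at 473 and 17.8 CPM.

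Among the largest in the other direction were *Slco1a1*, *Susd4*, *Tsc22d4*, *Apoa4* and *Saa1*. *Slco1a1* was at 528 and 125 CPM in zone 3, so that it kept a pericentral remnant in the HKO-labelled library while its zone 1 level was 2.72 CPM. *Apoa4*, a lipoprotein carried under lipid load, was at 124 and 127 CPM in zone 1 and 52.4 and 201 CPM in zone 3. *Susd4* was at 10.2 and 0.355 CPM in zone 1, from 165 and 3 UMIs, and at 78.7 and 42.0 CPM in zone 3. *Tsc22d4* was at 44.6 and 29.4 CPM in zone 1 and 5.90 and 18.6 CPM in zone 3.

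**Figure D5:**
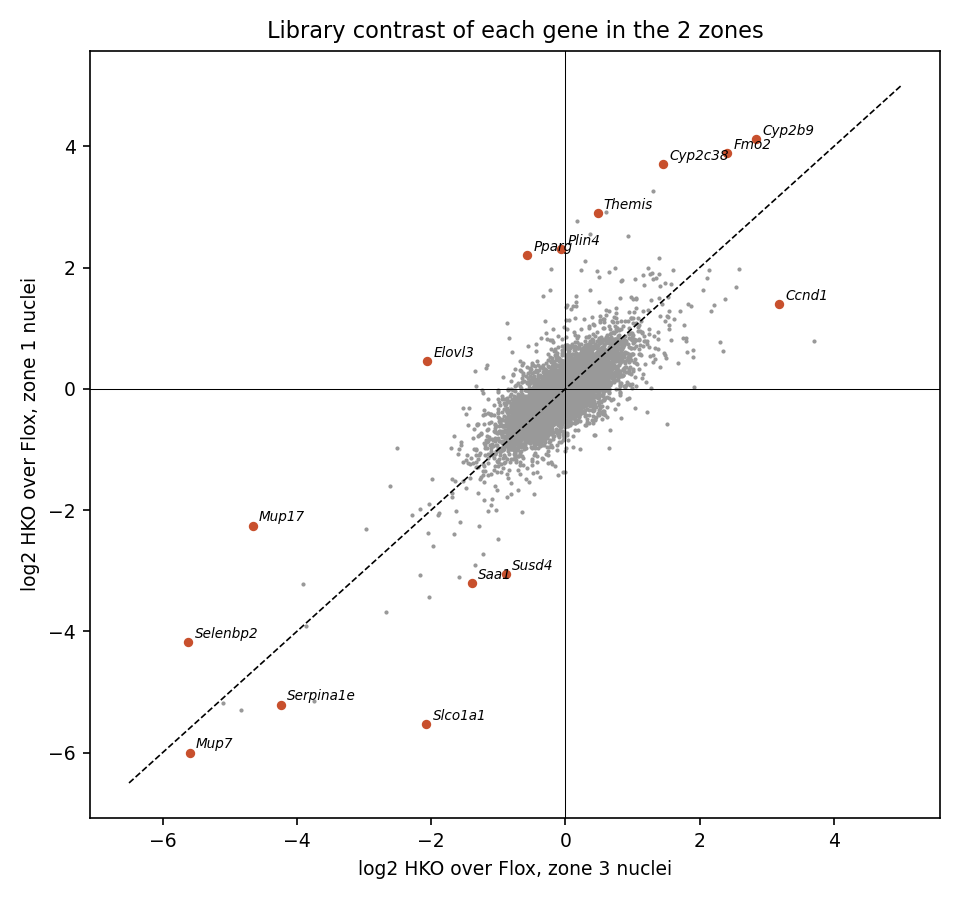
Log2 ratio of HKO over Flox for each of 8773 genes in zone 3 nuclei (horizontal) and zone 1 nuclei (vertical), from summed CPM + 1, with the dashed line at equal ratios. *Mup7* and *Serpina1e* are low in both zones, and *Themis* and *Pparg* are high in zone 1 and near 0 in zone 3 (0.48 and −0.57).

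Markers of other cells were at low levels in zone 1 nuclei of both libraries, which the choice of nuclei partly fixed. The rule for hepatocyte nuclei capped the UMIs of *Reln*, *Dcn*, *Ptprb*, *Clec4g*, *Ms4a7*, *Clec4f*, *Pkhd1* and *Bcl11b*. Sums of lists that hold any of these genes were therefore kept low by the rule. The endothelial nuclei were in turn chosen for *Ptprb* and *Clec4g*, so the contrast with them is not an independent check. The summed level of 6 macrophage markers was 7.45 and 14.0 CPM, of 6 stellate markers 18.2 and 22.6 CPM and of 6 endothelial markers 20.0 and 27.5 CPM, where the endothelial nuclei had 10023 and 8417 CPM. The 4 T cell markers summed to 0.807 and 1.54 CPM and the 4 B cell markers to 0.558 and 1.07 CPM. Of the 6 cholangiocyte markers (45.3 and 52.1 CPM in sum), *Sox9* and *Pkhd1* alone reached 100 UMIs. The lists of the other cell types were thus somewhat higher in the HKO-labelled library, and their part in the differences above was not tested. The 5 hepatocyte markers summed to 7731 and 5199 CPM and were all lower in that library, against 5755 of 10543 genes.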

How the data were processed

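Liver nuclei were profiled by 3′ snRNA-seq in 2 libraries, 1 labelled Flox and 1 labelled HKO. The authors deposited raw UMI counts per gene and barcode, made with Cell Ranger 8.0.1 on GRCm38 (per the submitters' processing notes and the study's methods) with intronic reads left out, which favours spliced RNA. The counts carried no normalization and held 32285 genes. The members, gene lists and named genes were chosen with earlier results of these data known. The named genes are the 10 highest and 10 lowest log2 ratios in zone 1, the 12 highest and 12 lowest of zone 1 over zone 3 (by the smaller ratio of the libraries), the 6 largest zone differences each way, the 2 highest and 2 lowest members of each list, the markers, and *Themis*, *Cdkn1a*, *Alb* and *Hamp*. Other list members named in the text were chosen after their values were seen, and some genes that the rule names are not reported here.

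CPM was computed from UMIs summed over the nuclei of a set in a library. Genes needed 100 UMIs over both libraries (for zone contrasts, over both zones in each library). Log2 ratios carry a pseudocount of 1 CPM, and folds carry none. Intervals are 95% exact Poisson (CPM), conditional binomial (ratios), Clopper-Pearson (shares) and, for ratios of ratios, a normal approximation on the log scale. They cover counting error only, and no p-values were computed. Ratios and intervals were tested on simulated counts. The endothelial nuclei had at least 3 UMIs of *Ptprb* and *Clec4g*, none of the 6 other markers and under 3000 UMIs. Of nuclei thinned to 1000 UMIs shallower ones were left out. Doublets were kept, and Scrublet in scanpy 1.11.5 marked 701 (7.49%) and 920 (8.58%) barcodes for an alternative. Of genes that share a symbol, the lowest identifier was used. Python 3.11.15, numpy 2.4.6, scipy 1.17.1, R 4.3.3 and edgeR 4.0.16 (TMM factors) were used.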

Additional observations from a re-analysis of the deposited data

Results flagged for a closer look

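In 11 of 8773 genes the libraries differed in opposite directions in zone 1 and zone 3, by at least 2-fold in 1 of the zones and with counting intervals clear of equality in both. The difference between the zones was not tested, since each group was 1 library. Higher in the HKO-labelled library in zone 1 and lower in zone 3 were 8 genes, given with the log2 ratio of zone 1 minus that of zone 3: *Pparg* (2.77), *Elovl3* (2.52), *Cyp3a11* (2.20), *Gstt3*, a glutathione transferase (1.96), *Nrp2*, neuropilin 2 (1.87), *Aldh3a2*, a dehydrogenase of fatty aldehydes (1.85), *Car3*, carbonic anhydrase 3 (1.66), and *Cidec* (1.43). Lower in zone 1 and higher in zone 3 were *Tsc22d4* (−2.10), *Fgf21*, a hormone of the fasting liver (−1.60), and *Pfkl*, the liver phosphofructokinase (−1.35). With a cut of 0.05% for the zone 1 genes, *Elovl3* was lower in zone 1 as well (log2 −0.26). All 8 genes of the former kind were lower in zone 1 than in zone 3 in the Flox-labelled library. *Nrp2* was at 785 and 678 CPM in endothelial nuclei, and the part of their RNA in its zone 1 level was not tested.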

How the results depend on the processing

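No test could be made with 1 library per group, no library could be left out, and the values below are set against the counting interval of the main value or, for counts of genes, a range of 1.5 times. No paired analysis was possible because each genotype had 1 library. The share of zone 1 nuclei, HKO over Flox, was 0.827. It turned to 1.05 with a cut of 0.2% for the zone 1 genes, and was 0.938 with a cut of 0.05% and 0.98 among nuclei with either zone mark. The log2 ratio of *Themis* was 2.00 when nuclei were thinned to 3000 UMIs before the rule, 3.34 and 1.84 with cuts of 0.2% and 0.05%, 2.26 with a pseudocount of 10 CPM and 3.48 among nuclei with scores from 0.2% to under 0.4%, an alternative chosen after seeing the data. The 182 genes at least 2-fold higher in zone 1 became 113 with a cut of 0.2%, 112 at scores of 0.2% to 0.4%, 78 with a pseudocount of 10 CPM, 339 with a minimum of 20 UMIs and 94 with 400 UMIs. The 238 lower genes became 103 with the pseudocount of 10 CPM and 149 with 400 UMIs. The 185 genes higher in zone 1 than zone 3 became 119 with that pseudocount, 290 with 20 UMIs and 92 with 400 UMIs, and the 191 lower became 319 and 92 with the last 2. The 115 genes that differed between the zones became 52, 321 and 48 with the same 3 settings. A higher minimum tests fewer genes, and a larger pseudocount shrinks ratios of low genes; the cause of the other moves was not tested. In 62 of 85 comparisons of these results the value stayed in its range, and of 708 values of named genes past 2-fold in zone 1, 670 stayed past 2-fold and 0 changed sign. Neither TMM factors nor leaving out *Malat1* and mitochondrial genes, doublets or nuclei with a marker UMI moved any of these results out of its range. Of the list medians, that of acute phase proteins was below 2-fold with a cut of 0.2% (−0.82) and a minimum of 400 UMIs (−0.90), and that of male-biased genes lay between −4.17 and −2.02. Low genes such as *Adgrg2* rest on under 10 UMIs in zone 1.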
